A study of Mus musculus with 6 samples.

Results

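The insulin-like growth factor (IGF) axis of liver endothelial cells (ECs) was taken here as 10 genes chosen by name, namely the ligand gene Igf1, the receptor genes Igf1r and Igf2r, and the binding protein genes Igfbp1 to Igfbp7. All 10 had a row among the 24421 genes of the deposited count table, and 9 of them were among the 14612 genes that were high enough to test, since Igfbp1 was not. Livers of wild-type C57BL/6J mice were dissociated, and the CD31+CD45- cells, that is, cells with the endothelial surface protein CD31 and without the leukocyte protein CD45, were sorted and used for single-end RNA sequencing. The young group held 3 samples from mice of 10 weeks, and the aged group held 3 samples from mice of 127, 131 and 136 weeks, so that each aged sample had an age of its own. All the mice were female and carried no transgene or treatment, and the gate took endothelium of the whole liver rather than of 1 vessel type. The comparison asked how gene expression of liver ECs differed between old and young mice. The sources do not say whether a sample was 1 animal or a pool, and the p-values below measure only the spread between these samples.

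IGF1 and IGF2 are secreted peptides that signal for growth and survival through IGF1R, a receptor tyrosine kinase related to the insulin receptor. IGF2R carries no kinase and removes IGF2 from the cell surface, besides moving enzymes tagged with mannose 6-phosphate to lysosomes. The classical IGF binding proteins hold the ligands in plasma and tissue and set how much can reach a receptor, whereas IGFBP7 binds IGFs weakly and is known as a secreted protein of vascular cells. In the liver, hepatocytes are the main source of the IGF1 in blood.

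Libraries held between 23001556 and 31651817 counts, and 3 counts in a library, taken as the limit that a count of 0 allows, corresponded to 0.0948 to 0.130 CPM, the counts scaled to the library's total. The CPM of genes given below also carry the factors of edgeR's TMM normalization. Reads of the mitochondrial synthetase gene Lars2 and the ribosomal RNA gene Rn45s made up 4.68% to 5.53% of the counts in 4 libraries, but 1.29% in young sample 3 and 0.960% in the 127-week sample. Each age group therefore held 1 library with few such reads, and aged-minus-young differences of log2(CPM + 1) within the 4 and within the 2 libraries are given for the members tested. They were of opposite sign for Igfbp3 (0.20 within the 4 and -0.47 within the 2), Igf1r (0.068 and -0.21), Igfbp2 (0.51 and -0.91) and Igfbp6 (-0.50 and 0.26). They were of the same sign for Igf1 (0.56 and 0.92), Igf2r (0.44 and 0.21) and Igfbp4 (-0.28 and -0.46), and for Igfbp5 and Igfbp7 as given below. CPM of Ptprc, which encodes CD45, was 1.17 to 1.70 in young samples, 1.28 at 131 weeks, 7.56 at 127 weeks and 25.6 at 136 weeks.

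Across all 14612 genes, edgeR's quasi-likelihood test called none, a call being a Benjamini-Hochberg adjusted p under 0.05 together with a log2 fold change beyond 1 in either direction (0% called). The smallest adjusted p was 0.0735. At an unadjusted p under 0.05 the same test gave 1847 genes (12.6%), and the CPM ranges of the 2 ages did not overlap in 2622 genes (17.9%). DESeq2 called 472 genes by the same rule (3.23%) and limma-voom with sample quality weights, as used throughout, 15 (0.103%). Of the 9 members tested, none was called by edgeR, 2 had an unadjusted p under 0.05 (22.2%), and the same 2, Igfbp5 (higher in aged, as were 8.32% of all genes at that p) and Igfbp7 (lower, as were 4.32%), had ranges that did not overlap. DESeq2 called 1 of the 9, Igfbp5, and limma-voom called 0. The median log2 fold change of aged over young was -0.0096 over the 9 members and 0.0098 over all genes tested, with 4 members above 0 and 5 below.

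The promoters of the 3 binding protein genes on which the results turn are shown here, so that the genes can be set side by side. They are the stretches from 250 bases before to 50 bases after the start of each gene, from RefSeq on mouse build GRCm38.p6, written along the gene's own strand. Capitals mark matches on either strand to the GC box GGGCGG or the TATA box TATAAA. Igfbp7 lies at chr5:77407996-77408295 on the minus strand, Igfbp4 at chr11:99040994-99041293 on the plus strand and Igfbp5 at chr1:72874816-72875115 on the minus strand.
Igfbp7: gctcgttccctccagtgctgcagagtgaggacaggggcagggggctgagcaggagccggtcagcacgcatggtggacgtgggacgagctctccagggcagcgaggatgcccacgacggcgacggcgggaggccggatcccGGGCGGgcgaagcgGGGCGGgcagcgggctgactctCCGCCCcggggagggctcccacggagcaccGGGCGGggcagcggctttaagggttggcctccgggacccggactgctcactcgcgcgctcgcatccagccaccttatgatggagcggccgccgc
Igfbp4: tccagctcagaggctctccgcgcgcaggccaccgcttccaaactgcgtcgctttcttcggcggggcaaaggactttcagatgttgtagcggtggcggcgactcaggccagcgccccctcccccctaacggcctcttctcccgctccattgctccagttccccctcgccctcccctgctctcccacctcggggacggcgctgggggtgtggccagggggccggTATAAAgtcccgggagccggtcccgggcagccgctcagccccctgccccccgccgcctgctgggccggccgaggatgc
Igfbp5: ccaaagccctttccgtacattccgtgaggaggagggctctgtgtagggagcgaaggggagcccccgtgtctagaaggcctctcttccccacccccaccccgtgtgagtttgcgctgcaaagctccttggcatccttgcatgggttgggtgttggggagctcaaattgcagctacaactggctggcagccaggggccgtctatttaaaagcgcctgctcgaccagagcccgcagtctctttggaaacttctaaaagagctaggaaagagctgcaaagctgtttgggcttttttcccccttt

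The Igfbp7 stretch was 73.3% G or C and held 4 GC boxes, which began 110, 96, 74 and 44 bases before the start. The Igfbp4 stretch was 71.3% G or C and held 1 TATA box, which began 28 bases before the start. The Igfbp5 stretch was 56.3% G or C, near the 52.7% median of all 32851 RefSeq promoters, and matched neither motif. GGGCGG or its reverse complement occurred in 35.7% of all promoters and, among the members, in those of Igf1r, Igf2r, Igfbp2 and Igfbp7. TATAAA or its reverse complement occurred in 13.6% of promoters, and in those of Igfbp4 and Igfbp6. The insulin response element CAAAACAA, searched on both strands, occurred in 2.51% of promoters and in 1 member's, that of Igfbp1, where it began 108 bases before the start. TTCNNNGAA, the letters bound by STAT5, occurred in 8.30% of promoters and in no member's. These matches describe letters in the window and were not measured as binding.

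Among the members, the binding protein genes Igfbp7 and Igfbp4 were by far the most abundant transcripts per length. In FPKM, the reads of a gene scaled to its length and to the library's depth, Igfbp7 was 3733 ± 291 in young and 2051 ± 368 in aged samples (SD, n = 3 each), which placed it 7th to 9th among all genes of young samples and 12th to 32nd in aged ones. Igfbp4 ranged from 983 to 1265 FPKM in young and from 709 to 1158 in aged samples. Igfbp3 was at 42.8 to 65.9 FPKM in young samples and Igfbp5 at 7.90 to 19.7. The receptors and the remaining members were lower than these in every young sample.

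**Figure D1:**
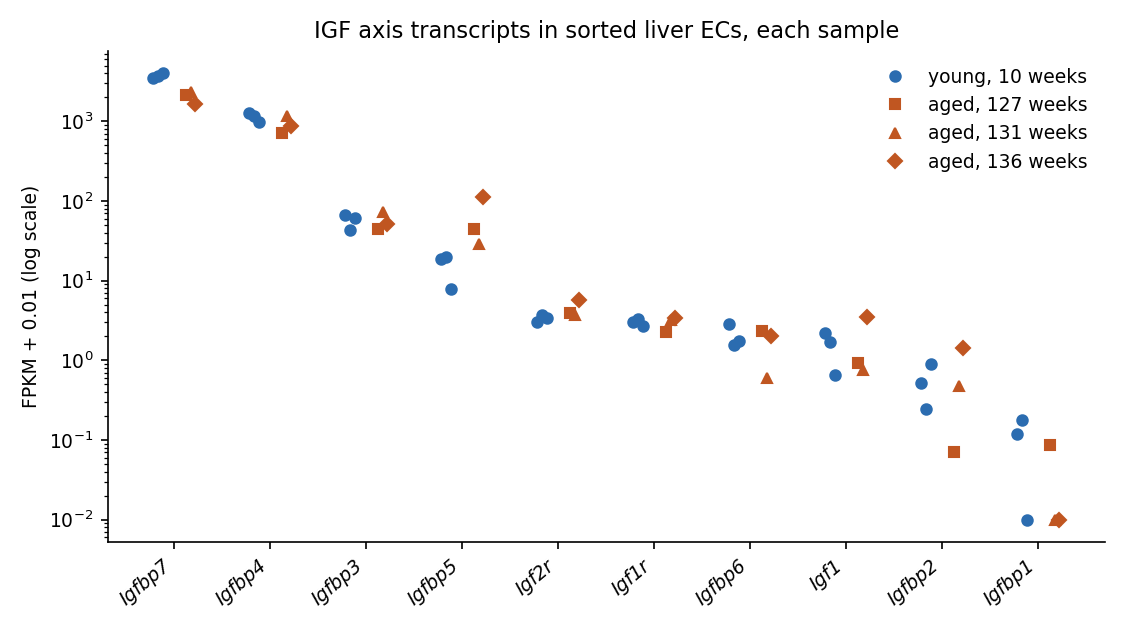
FPKM of each of the 10 members (vertical axis, log scale, with a small constant added so that 0 can be drawn) in the 3 young samples (blue circles) and the 127-, 131- and 136-week samples (orange squares, triangles and diamonds). Igfbp7 and Igfbp4 lie above all other members in every sample, and Igfbp1 is listed at 0 in 3 of the 6.

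In young samples the order of mean FPKM was Igfbp7, Igfbp4, Igfbp3, Igfbp5, Igf2r, Igf1r, Igfbp6, Igf1, Igfbp2 and Igfbp1. The ranges of the first 4 did not overlap with those of their neighbours. Overlaps began with Igf2r and Igf1r and ran on through Igfbp6, Igf1 and Igfbp2. In aged samples Igfbp5 stood before Igfbp3, but their ranges overlapped and Igfbp5 was the higher in only 1 of the 3 samples. Igf1 stood before Igfbp6 in aged samples, with overlapping ranges, and after it by CPM per kilobase of all annotated exons (0.951 for Igf1 and 1.65 for Igfbp6). The order of the 2 receptors also depended on how length was counted, since CPM per kilobase gave Igf1r 8.23 and Igf2r 3.24 in young samples, the reverse of the FPKM order.

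Igfbp7 was lower in every aged sample than in any young sample. It lies on mm9 at chr5:77778265-77837070 on the minus strand. CPM was 3032, 3224 and 3468 in young samples, 1853 at 127 weeks, 2079 at 131 weeks and 1456 at 136 weeks. The lowest young value thus stayed well above the highest aged one, and the oldest sample had the lowest level. The mean was 3241 ± 218 in young and 1796 ± 315 in aged samples (SD, n = 3), a log2 fold change of -0.85 (SE 0.20, 95% interval -1.33 to -0.37) or an aged level 0.554 times the young one. The edgeR quasi-likelihood p was 0.00381 unadjusted and 0.235 after adjustment over all genes, so the difference did not pass. DESeq2 gave -0.86 with an adjusted p of 0.000665, which passed in p, as did 4.31% of all genes, but not in size. Over all the alternatives tried the log2 fold change lay between -0.97 and -0.72 and the adjusted p between 0.000665 and 0.625. On the log2(CPM + 1) scale the aged-minus-young difference was -0.85 within the 4 libraries rich in Lars2 and Rn45s reads and -0.90 between the 2 others. The gene shares 85 exonic bases, 7.01% of its exon length, with Polr2b on the opposite strand, and the strand setting of the counting is not given in the sources used here.

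Igfbp4 encodes a binding protein that is known for holding IGFs away from the receptor until the protease PAPP-A cleaves it. It lies on mm9 at chr11:98902558-98913969 on the plus strand. CPM was 2451, 2259 and 1858 in young samples, 1355 at 127 weeks, 2251 at 131 weeks and 1677 at 136 weeks. The 131-week sample reached the young levels, whereas the other 2 aged samples were below them. Its log2 fold change was -0.31 (SE 0.24, 95% interval -0.88 to 0.25, edgeR adjusted p 0.652).

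Igfbp5 was the member with the widest difference, and it was higher in every aged sample than in any young sample. IGFBP5 is a binding protein that attaches to extracellular matrix and is made by many mesenchymal and endothelial cells. The gene lies on mm9 at chr1:72904506-72921458 on the minus strand, and Igfbp2 ends 5457 bases away with no gene between them. CPM was 110.4, 116.9 and 45.6 in young samples, 256 at 127 weeks, 173 at 131 weeks and 660 at 136 weeks. The 131-week sample was nearest to the young ones, and the 136-week sample lay far above the other 5. The mean was 91.0 ± 39.4 in young and 363 ± 261 in aged samples (SD, n = 3), a log2 fold change of 2.00 (SE 0.56, 95% interval 0.68 to 3.32) or 3.99-fold.

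The edgeR quasi-likelihood p of Igfbp5 was 0.00867 unadjusted and 0.256 adjusted, so that it was not called, whereas DESeq2 gave 1.99 (SE 0.52) with an adjusted p of 0.00734 and called it. Over the alternatives the adjusted p lay between 0.00734 and 0.625. Without the 136-week sample the log2 fold change was 1.24, and without the 131-week sample 2.33. On the log2(CPM + 1) scale the aged-minus-young difference was 1.57 within the 4 libraries rich in Lars2 and Rn45s reads and 2.46 between the 2 others.

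Igfbp3, the main carrier of IGFs in plasma, did not separate the ages. CPM was 152.9, 99.2 and 139.8 in young samples, 101 at 127 weeks, 168.6 at 131 weeks and 119 at 136 weeks. The 3 aged values were spread across the whole young range and beyond its upper end. The log2 fold change was -0.013 (SE 0.24, edgeR adjusted p 0.990), and the 95% interval of -0.58 to 0.56 leaves room for a modest difference either way. Igfbp3 lies on mm9 at chr11:7106089-7113926 on the minus strand, and Igfbp1 at chr11:7097785-7102549 ends 3539 bases away with no gene between them. The 2 neighbours nevertheless differed widely in level, as did Igfbp5 and Igfbp2.

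**Figure D2:**
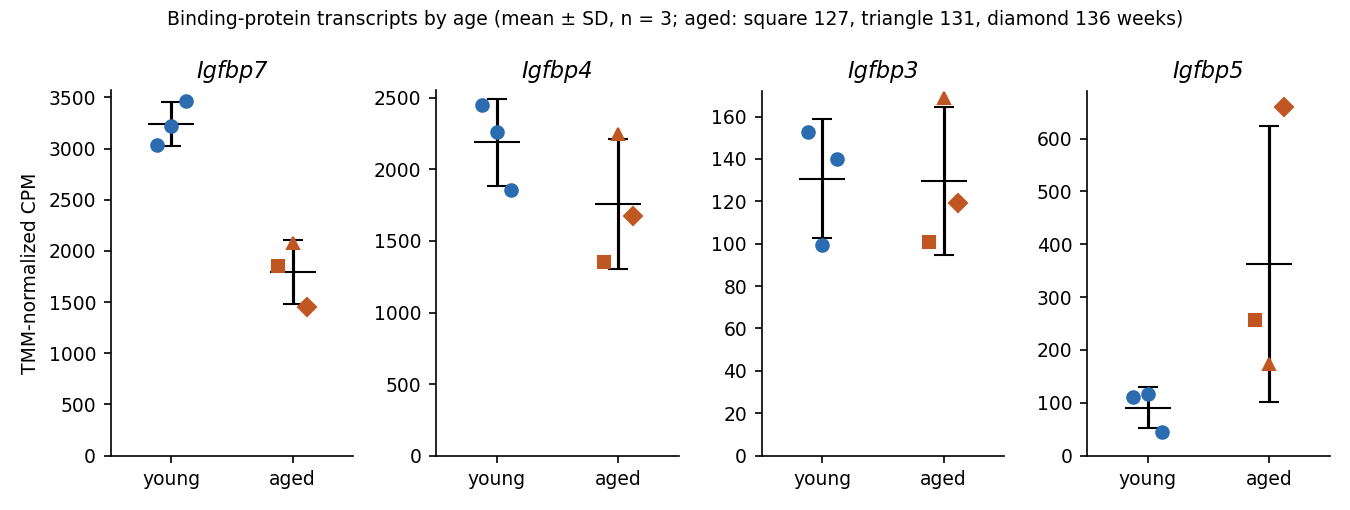
TMM-normalized CPM (vertical axes, each from 0) of Igfbp7, Igfbp4, Igfbp3 and Igfbp5 in young (blue) and aged (orange; square 127, triangle 131 and diamond 136 weeks) samples, with the mean and SD (n = 3) in black. The ages do not overlap for Igfbp7 and Igfbp5 and do for Igfbp4 and Igfbp3.

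The other binding protein genes were near the lower end of what could be measured. Igfbp6, whose product prefers IGF2, was at 3.16, 1.71 and 1.96 CPM in young samples and at 2.54, 0.739 and 2.23 at 127, 131 and 136 weeks. The ages overlapped, with a log2 fold change of -0.31 (SE 0.55, edgeR adjusted p 0.880). Igfbp2, a product of hepatocytes among other cells, had 16, 6 and 32 counts in young samples and 2, 14 and 41 at 127, 131 and 136 weeks. Its log2 fold change of 0.26 had a 95% interval from -2.17 to 2.69, and the counts varied widely within each age. Igfbp1, which hepatocytes make in fasting, had 4, 5 and 0 counts in young samples and 3, 0 and 0 in aged ones, and no fold is given.

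Set beside each other, the 7 binding protein genes summed to 4816, 4926 and 5096 FPKM in young samples and to 2939, 3627 and 2674 at 127, 131 and 136 weeks. The young sums were all above the aged ones. Without Igfbp7 the sums were 1055 to 1353 in young and 800 to 1261 in aged samples, which overlapped. Igfbp7 and Igfbp4 together held 98.2% to 98.7% of the summed FPKM in young samples and 93.8% to 97.2% in aged ones.

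The share of Igfbp7 alone was 71.9%, 75.0% and 79.3% in young samples and 72.8%, 65.2% and 61.6% at 127, 131 and 136 weeks, so that the 127-week sample lay within the young range. The Igfbp5 share was 0.387%, 0.400% and 0.155% in young samples and 1.5%, 0.803% and 4.16% in aged ones, and these did not overlap. FPKM of Igfbp7 was 2.74 to 4.11 times that of Igfbp4 in young samples, 3.02 times at 127 weeks, 2.04 times at 131 weeks and 1.91 times at 136 weeks. These shares and ratios were built from the values described above and were not tested.

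Igf1r, the signalling receptor, was at nearly the same mean level in both ages. It lies on mm9 at chr7:75097713-75371484 on the plus strand. CPM was 37.7, 40.4 and 32.3 in young samples, 27.7 at 127 weeks, 39.7 at 131 weeks and 42.2 at 136 weeks. The lowest and the highest of the 6 values were both in aged samples. The log2 fold change was -0.0096 (SE 0.20, edgeR adjusted p 0.990), with a 95% interval of -0.47 to 0.45, and its sign was positive when only library size was used for scaling or with upper-quartile scaling.

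Igf2r, the clearance receptor, was somewhat higher on average in aged samples without separating the ages. It lies on mm9 at chr17:12875272-12962530 on the minus strand, where the antisense RNA Airn overlaps it with no shared exonic base. CPM was 27.6, 33.7 and 30.4 in young samples, 35.3 at 127 weeks, 33.5 at 131 weeks and 52.1 at 136 weeks. Only the 131-week sample fell inside the young range, just below young sample 2. The log2 fold change was 0.40 (SE 0.21, 95% interval -0.082 to 0.88, edgeR adjusted p 0.481), and 0.17 without the 136-week sample. Leaving out a sample moved the number of members whose ages did not overlap. It was 4 without the 131-week sample, Igf2r and Igfbp4 joining Igfbp5 and Igfbp7, where 34.5% of all genes tested did not overlap. It was 3 without young sample 2, with Igf2r (23.2% of all genes), and 3 without young sample 3, with Igfbp4 (33% of all genes).

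Igf1 itself was low in these sorted cells and its difference rested on 1 sample. The gene lies on mm9 at chr10:87321010-87399792 on the plus strand. CPM was 6.29, 5.60 and 2.14 in young samples, 4.95 at 127 weeks, 4.16 at 131 weeks and 19.2 at 136 weeks. The 127- and 131-week samples lay within the young range, and the 136-week sample stood above all others. The log2 fold change was 1.01 (SE 0.67, 95% interval -0.56 to 2.58, edgeR adjusted p 0.593), and -0.033 without the 136-week sample. It was 0.29 by limma-voom and 0.033 by limma on log2(FPKM + 1). That sample also had the highest summed CPM of 5 pan-leukocyte markers, 174, against 13.3 to 43.7 in the other 5, and of 6 Kupffer cell markers, 90.3 against 6.73 to 65.9. The part of such cells in the Igf1 value was not tested.

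**Figure D3:**
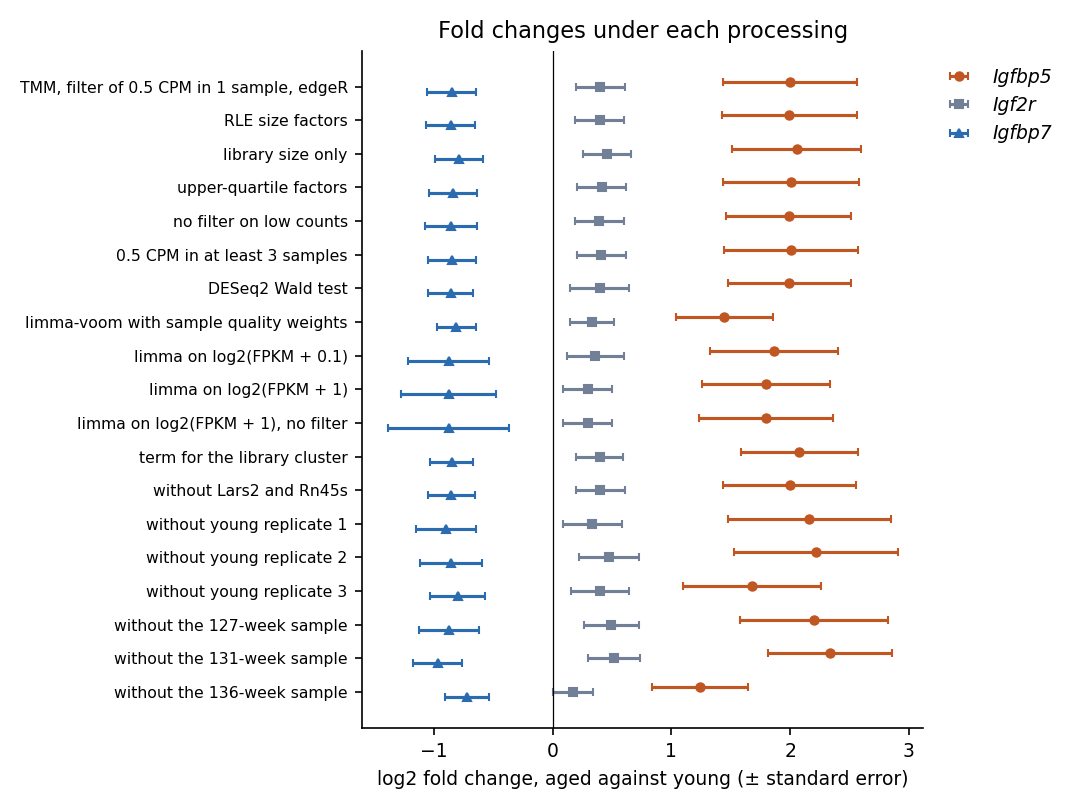
Log2 fold change of aged over young (horizontal axis, bars of 1 standard error) for Igfbp5 (orange circles), Igf2r (grey squares) and Igfbp7 (blue triangles), 1 line for the edgeR value at the top and 1 for each of the 18 alternatives. Igfbp5 (1.24 to 2.33) and Igfbp7 (-0.97 to -0.72) stay on their side of 0 throughout, and Igf2r is nearest to 0 without the 136-week sample (0.17).

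The genes that act with these members were taken as a list of 33, comprising the ligand gene Igf2 and the plasma complex gene Igfals, related receptors, adaptors, proteases and their inhibitors, growth hormone signalling, mannose 6-phosphate partners, IGF2 mRNA-binding proteins and relatives of the binding proteins. Of these, 28 were tested and edgeR called 0, while DESeq2 called 7, against 3.23% of all genes, and limma-voom 0. At an unadjusted p under 0.05, 7 were higher and 2 lower in aged samples, against 8.32% and 4.32% of all genes, and the ranges of 8 lay above and of 4 below the young ranges, against 9.62% above and 8.33% below over all genes. The median log2 fold change of the list was 0.16. Grb14, Irs2, Socs2, Igf2bp2 and Kazald1 also stand in lists that the study drew from these samples, so their direction is not independent evidence.

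Igf2, the second ligand, was more abundant than Igf1 in every sample, by 1.29 to 2.37 times in FPKM in young and 4.86 to 7.24 times in aged samples. In CPM, which carry no length, the ratio was 1.32 to 2.56 in young and 3.10 to 4.78 in aged samples. The FPKM of Igf1 was 0.299 to 0.347 times its CPM in young and 0.181 to 0.183 times in aged samples. The CPM of Igf2 was 13.8, 14.3 and 2.84 in young samples and 15.3, 19.9 and 67.9 at 127, 131 and 136 weeks. All aged values of Igf2 were thus above the young ones, narrowly at 127 weeks. Aged over young, the log2 fold change was 1.74 (SE 0.74, edgeR adjusted p 0.397), but 0.78 without the 136-week sample and 1.01 by limma-voom. Insr, the insulin receptor and the most abundant of the related receptors, was at 27.3 FPKM on average in young and 24.1 in aged samples, with a log2 fold change of -0.17 (SE 0.34, edgeR adjusted p 0.899).

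Downstream of the receptors, Irs2, an adaptor that passes the insulin and IGF1 signals to PI3K, was at 3.54, 1.99 and 1.48 CPM in young samples and at 6.15, 9.14 and 13.4 in aged ones. All 3 aged values were above the young ones, with a log2 fold change of 2.03 (SE 0.44, edgeR adjusted p 0.215, DESeq2 adjusted p 0.00150). Grb14, an adaptor that inhibits the insulin receptor, was at 1.15, 1.26 and 0.536 CPM in young and 3.06, 4.94 and 3.13 in aged samples. The difference was 1.92 on the log2 scale (SE 0.47, edgeR adjusted p 0.237, DESeq2 adjusted p 0.00827). Shc1, the most abundant adaptor, averaged 47.0 FPKM in young and 65.7 in aged samples, with overlapping CPM and a log2 fold change of 0.50 (SE 0.23, edgeR adjusted p 0.426).

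Pappa, which encodes the protease PAPP-A, was at 1.19, 2.57 and 0.631 CPM in young samples and at 8.05, 2.84 and 8.69 at 127, 131 and 136 weeks. The 131-week value was only slightly above the highest young one, and the log2 fold change was 2.16 (SE 0.63, edgeR adjusted p 0.268, DESeq2 adjusted p 0.0226). It was 2.84 without young sample 2. On the log2(FPKM + 1) scale, which shrinks low genes, limma gave 0.46 for Pappa, 0.96 for Grb14, 1.10 for Irs2 and -0.61 for Igf2bp2. Stc1, whose product stanniocalcin-1 inhibits PAPP-A, was at 28.9, 35.9 and 20.3 CPM in young and 39.5, 70.4 and 118 in aged samples. On the log2 scale the difference was 1.42 (SE 0.40, edgeR adjusted p 0.256, DESeq2 adjusted p 0.0208). Htra1, the most abundant of the protease genes, overlapped between the ages, with a log2 fold change of 0.16 (SE 0.34, edgeR adjusted p 0.905).

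Socs2, a feedback inhibitor of growth hormone signalling, was at 24.9, 23.0 and 18.1 CPM in young and 60.8, 35.2 and 95.4 in aged samples, a log2 fold change of 1.54 (SE 0.35, edgeR adjusted p 0.235, DESeq2 adjusted p 0.00294). Cish, a related inhibitor and the most abundant gene of that arm, had overlapping ages and a log2 fold change of 0.63 (SE 0.29, edgeR adjusted p 0.427). The 2 genes for STAT5, which carries the growth hormone signal to DNA, lay on opposite sides. Stat5a was at 9.43 to 12.5 CPM in young and 13.6 to 17.0 in aged samples (log2 fold change 0.49, SE 0.20, edgeR adjusted p 0.378). In FPKM, however, the ages overlapped for Stat5a. Stat5b was at 136 to 143 CPM in young and 112 to 126 in aged samples (log2 fold change -0.24, SE 0.12, edgeR adjusted p 0.478).

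Igf2bp2, an RNA-binding protein that binds Igf2 mRNA, was at 2.08, 3.02 and 3.63 CPM in young and 0.481, 0.933 and 0.447 in aged samples. Of the 7 genes that DESeq2 called in the list it alone was lower in aged samples, with -2.22 by edgeR (SE 0.49, edgeR adjusted p 0.232, DESeq2 adjusted p 0.00245). Kazald1, a relative of the binding proteins, had a log2 fold change of 1.16 (SE 0.31, edgeR adjusted p 0.254, DESeq2 adjusted p 0.0294).

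Among the mannose 6-phosphate partners of Igf2r, M6pr, the other receptor for the tag, was at 212 to 220 CPM in young and 168 to 184 in aged samples. The ranges did not overlap, with a log2 fold change of -0.27 (SE 0.13, edgeR adjusted p 0.433). Nagpa, the enzyme that uncovers the tag, had a log2 fold change of -0.54 (SE 0.20, edgeR adjusted p 0.349). Both had their aged values below the young ones. Gnptab and Gnptg, which encode the enzyme that adds the tag and are named to complete this group of 4, overlapped between the ages, with log2 fold changes of 0.0014 and 0.075.

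**Figure D4:**
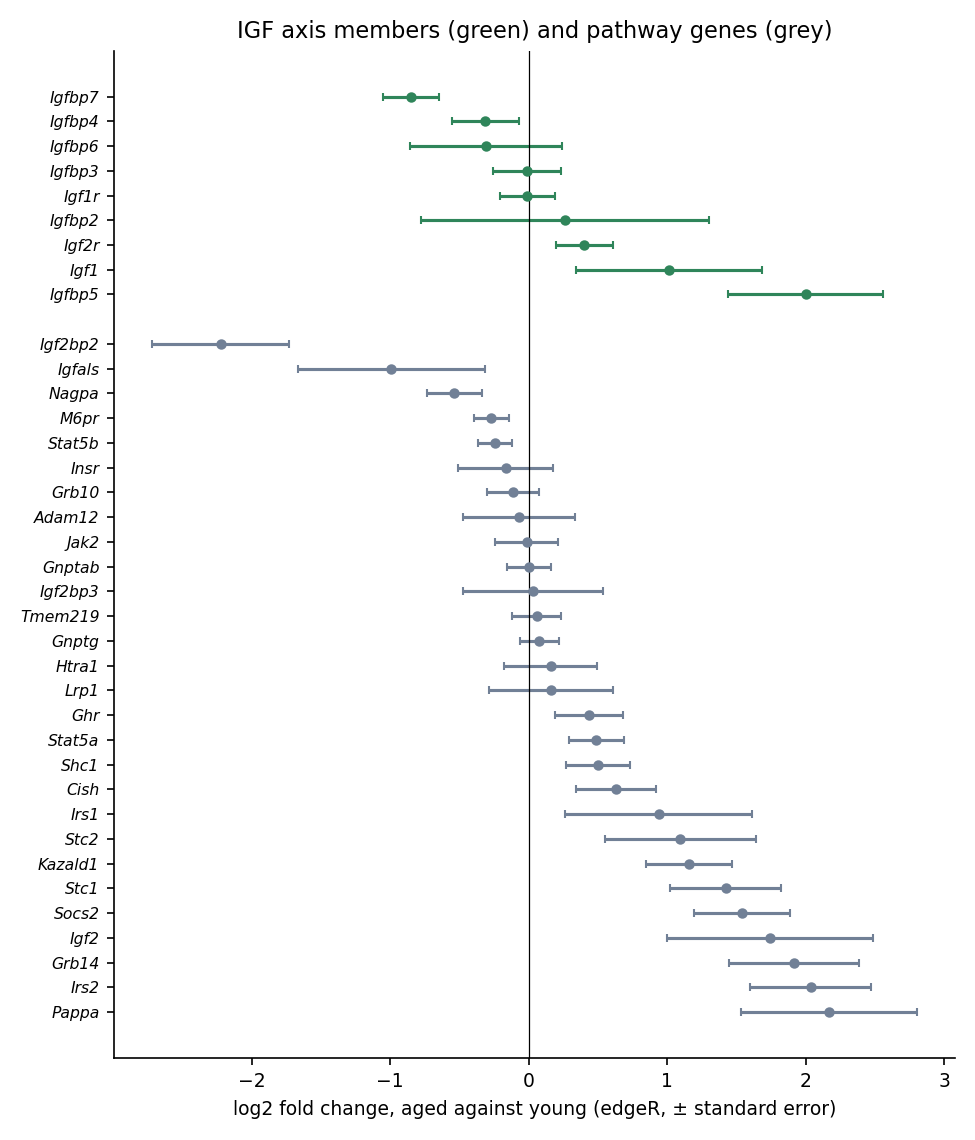
Log2 fold change of aged over young by edgeR (horizontal axis) for the 9 members tested (green) and the 28 pathway genes tested (grey), as points with bars of 1 standard error. Igfbp5 (2.00) and Igfbp7 (-0.85) are the outermost members, and Pappa (2.16) and Igf2bp2 (-2.22) the outermost pathway genes.

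The sorted samples carried high endothelial transcripts, but the levels of vessel-type and other markers differed between the samples beside the members. The summed CPM of 8 pan-endothelial markers was 13353 to 14017 in young and 9513 to 12320 in aged samples. Of these 8, 3 had aged values below all young ones, and 3 had a log2 fold change above 0. One of the latter was Pecam1, which encodes CD31, at 0.015. The summed CPM of 10 sinusoidal markers was 20279 to 21532 in young samples, 7874 at 127 weeks, 13867 at 131 weeks and 8020 at 136 weeks. Of these, 7 of 10 markers were below all young values. Igfbp7 was also lower in every aged sample and highest among them at 131 weeks. It was lowest at 136 weeks, however, whereas the sinusoidal sum was lowest at 127 weeks. Among young samples Igfbp7 was highest in sample 3 and the sum in sample 2. The summed CPM of 10 large-vessel markers was 3485 to 5295 in young and 3774 to 5440 in aged samples. Of these, 4 of 10 had aged values above all young ones. In bulk samples fewer cells of a type and less RNA per cell cannot be told apart, and the part of the mixture of vessel types in the Igfbp7 value was not tested.

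The summed CPM of 10 stellate and mural markers, cells that can carry Igfbp5, was 490, 412 and 147 in young samples and 462, 235 and 737 at 127, 131 and 136 weeks, overlapping between the ages. Reln was the largest part of this sum in each of the 6 samples. Without Reln, a set chosen after its values were seen, the other 9 markers summed to 335, 230.4 and 77.2 CPM in young samples and to 111, 126 and 242 at 127, 131 and 136 weeks. The 136-week sample, highest for Igfbp5, was highest for the full sum but below young sample 1 without Reln, and young sample 3 was lowest for Igfbp5 and for both sums. At 131 weeks both sums were below those of young samples 1 and 2 and above those of young sample 3. Igfbp5 at 131 weeks was higher than in every young sample. Of the 10 markers, 6 were lower at 131 weeks than in both young samples 1 and 2. Another 3 lay between those 2 samples and 1, the smooth muscle actin gene Acta2, was higher than both. The part of these cells in the Igfbp5 value was not tested.

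The summed CPM of 14 hepatocyte markers was 303 to 410 in young and 219 to 344 in aged samples, with 6 of 14 markers below all young values. The log2 fold change was below 0 for 13 of the 14 and above 0 for 1, Trf. Trf was at 116 to 172 CPM in young and 105 to 243 in aged samples, a large part of these sums. For young and aged samples in turn, the summed CPM of 5 cholangiocyte markers was 7.25 to 22.4 and 20.4 to 27.1. That of 5 mesothelial markers was 3.97 to 7.48 and 0.309 to 2.44, and that of 5 lymphocyte markers 0.722 to 1.01 and 0.933 to 19.2. No marker of any list was at 0 in all samples.

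**Figure D5:**
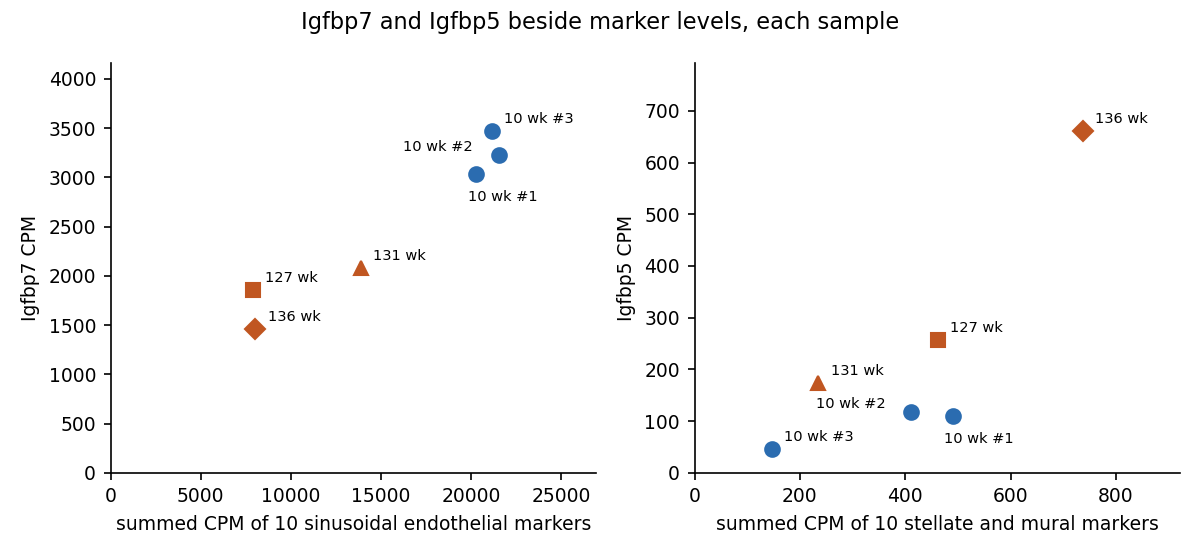
CPM of Igfbp7 against the summed CPM of 10 sinusoidal markers (left) and CPM of Igfbp5 against the summed CPM of 10 stellate and mural markers (right), 1 point a sample, with young samples in blue and aged samples in orange. On the left all young samples lie above and to the right of the aged ones. On the right the 131-week sample has more Igfbp5 than every young sample. Its marker sum is lower than in young samples 1 and 2 and higher than in young sample 3.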

How the data were processed

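RNA sequencing of sorted liver ECs was compared between 3 young and 3 aged samples, grouped by the age labels. The authors aligned reads to mm9 with TopHat2 2.1.0 and deposited a table of raw counts per gene and a table of FPKM normalized with Cuffnorm 2.2.1. The counting program and its strand setting are not given in the sources used here. Counts were tested with edgeR 4.0.16 (R 4.3.3, TMM scaling, quasi-likelihood test) on genes with at least 0.5 CPM in at least 1 sample, with p-values adjusted over all genes. Alternatives used DESeq2 1.42.0 and limma 3.58.1 (voom with sample quality weights, and log2 FPKM with pseudocounts of 1 and 0.1), other scalings, no filter, a term for the libraries rich in Lars2 and Rn45s reads, and leaving out each sample. FPKM was used for levels between genes, and fold changes come from the counts unless given as limma on log2 FPKM. Coordinates are from GENCODE M1 on mm9. Library totals give the depth, and the count limits cover counting error only. The tests were checked on simulated data. Named genes were all members, and of the 33 pathway genes those past the threshold, those whose ages did not overlap in CPM and the most abundant of each role. For the 3 most abundant members the 3 genes with the highest r were named. Gnptab and Gnptg were added after their values were seen. The members and lists were chosen with earlier results of these data known.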

Additional observations from a re-analysis of the deposited data

How the results depend on the processing

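The number of genes called was 0 by edgeR, 4 without the filter, 472 by DESeq2, 15 by limma-voom with sample quality weights, 2 by limma on log2(FPKM + 0.1), 2 with the library term, and 0 to 1 on leaving out a sample, where the 1 came without the 131-week sample. DESeq2 called 1 member, Igfbp5 (log2 fold change 1.99), and 7 pathway genes. Limma on log2(FPKM + 1), with or without the filter, left 1 member, Igfbp5, at an unadjusted p under 0.05, where that of Igfbp7 was 0.0676 with the filter. Leaving out a sample gave 2 to 4 members whose ages did not overlap, and library-size scaling with all samples kept gave 3. The sign reversed for Igf1r with library-size scaling (0.042) and upper-quartile scaling (0.0013), for Igfbp3 with library-size scaling (0.035) and voom (0.058), and for Igfbp2 with voom (-0.33) and log2(FPKM + 0.1) (-0.18). On leaving out a sample, the log2 fold change ran from -0.033 to 1.37 for Igf1, -0.12 to 0.16 for Igf1r, -1.04 to 0.81 for Igfbp2, -0.25 to 0.14 for Igfbp3 and -0.61 to 0.068 for Igfbp6. The cause of these shifts was not tested. Igf2r, Igfbp4 and Igfbp7 kept their direction and stayed uncalled in all 18 alternatives, and Igfbp5 kept its direction in 18 and was called in 1. Library-size scaling moved the median of all genes to 0.075. Depth limits what can be said of Igfbp1, with at most 5 counts in a sample, and the spread between samples what can be said of Igfbp2. No paired analysis was made, since nothing in the labels links a young sample to an aged one.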

Other observations

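Among 8912 genes with a mean of at least 10 CPM, the genes whose log2(CPM + 1) varied most like that of the abundant members over the 6 samples were listed by Pearson's r. For Igfbp7 they were Lrrc58 (r = 0.994), Cdk10 (r = 0.994) and Ramp2 (r = 0.993), the last of which encodes a receptor partner for adrenomedullin. For Igfbp4 they were Erp44 (r = 0.998), Uqcrc1 (r = 0.996) and Ifitm2 (r = 0.995), and for Igfbp3 Sirt5 (r = 0.986), Hdhd2 (r = 0.982) and Rai2 (r = 0.956). These are descriptions over 6 samples, in which all genes of a sample share its library and depth, and with so many genes searched high values arise readily.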
